A study of Rattus norvegicus with 14 samples.

Results

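The genes described here are 7 rat genes of peroxisomal and PPAR-alpha driven fatty acid oxidation: Acaa1b, Ehhadh, Ech1, Cyp4a1, Cyp4a2, Cyp4a3 and Acot1. They were followed in the left lateral lobe of rat liver on 3 diets. The Mg++ deficient diet had 4 arrays, numbered 11 to 14, the Mg++ supplemented diet had 5, numbered 1 to 5, and the standard diet had 5, numbered 6 to 10. The labels name no strain, sex, age, magnesium content or length of feeding, and whether the arrays hold different animals is not said, so the p-values below measure the spread between these arrays, which may in part be technical. The members were every probe set of an Affymetrix rat array whose gene symbol is one of the 7 names. This gave 11 of the array's 8799 probe sets, and 6 of the 7 genes were among the 4736 genes with a probe set of their own. Of the 11, 8 carried 1 symbol and 3 were shared with a relative: Acaa1b with Acaa1a, Cyp4a3 with Cyp4a2, and Acot1 with Acot2. Cyp4a2 had no probe set of its own, so its level was seen together with that of Cyp4a3. The values are probe set signals in arbitrary units after quantile normalisation, and a level of one probe set cannot be set against the level of another.

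PPAR-alpha is a nuclear receptor that fatty acids and fibrate drugs activate, and it binds DNA as a pair with a retinoid X receptor. In the liver of rats and mice it switches on fatty acid oxidation in peroxisomes and mitochondria and the hydroxylation of fatty acids at their far end in the endoplasmic reticulum. In rodents its strong activation makes peroxisomes multiply, and the genes described here are among the transcripts used to follow that response. Ehhadh and Acaa1b act in the peroxisomal beta-oxidation spiral, Ech1 prepares unsaturated chains for it, the Cyp4a enzymes carry out omega-hydroxylation, and Acot1 frees fatty acids from coenzyme A.

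The receptor binds repeats of a short element, AGGTCA, spaced by 1 base. The upstream sequences of Cyp4a2 and Cyp4a3 are shown because these genes share a probe set and lie close together on chromosome 5, with 1 protein-coding gene between them in the RefSeq annotation. Both are the 250 bases before the annotated start, from RefSeq on the GRCr8 build, written 5′ to 3′ on the minus strand, which is the strand of the genes. Capitals mark AGGTCA. Cyp4a2 is at chr5:134170909-134171158 and Cyp4a3 at chr5:134352237-134352486.
Cyp4a2: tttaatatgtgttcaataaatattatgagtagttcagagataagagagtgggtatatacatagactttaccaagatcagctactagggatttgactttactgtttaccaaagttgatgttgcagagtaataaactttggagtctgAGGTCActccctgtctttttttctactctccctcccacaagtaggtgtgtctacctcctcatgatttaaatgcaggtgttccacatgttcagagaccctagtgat
Cyp4a3: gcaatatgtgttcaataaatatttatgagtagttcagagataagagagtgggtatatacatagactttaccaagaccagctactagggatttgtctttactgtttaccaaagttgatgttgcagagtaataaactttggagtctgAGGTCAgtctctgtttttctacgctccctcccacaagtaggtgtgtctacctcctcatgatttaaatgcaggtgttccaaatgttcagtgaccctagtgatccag
In an alignment of these windows, 236 of 245 aligned bases were identical, or 96.3%. Each window held AGGTCA once, at the same distance from the start, with both strands searched. That element is short, and 14.1% of 33469 rat promoter windows of the same length hold it. Of the 7 genes, 5 had an entry in the promoter table: Acaa1b, Ehhadh, Cyp4a2, Cyp4a3 and Acot1. None of the 5 windows held, on either strand, the full repeat of AGGTCA followed by any 1 base and AGGTCA again, nor the looser form in which each copy is AGGNCA, with N for any base. Every full repeat is also a looser one and holds the single element. The full repeat was present in 0.0508% of all windows and the looser form in 0.368%. The windows of Acaa1b, Ehhadh and Acot1 held no AGGTCA. Bases outside these windows and less exact repeats were not searched, so elements of those kinds cannot be taken as absent.

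RNA quality was followed by the log2 ratio of the 3' to the 5' control probe set of Gapdh, which goes up when RNA is broken or copied short. This Gapdh ratio ran from 1.12 to 2.68 on the deficient diet, from -0.12 to 1.12 on the supplemented diet and from 1.04 to 2.65 on the standard diet. Each array was also ranked against all others, and the mean rank correlation was 0.913 for supplemented 5 and between 0.940 and 0.951 for the rest. Supplemented 5 also had the lowest Gapdh ratio and the highest median deposited signal, 34.4 units, against 18.0 to 27.8 units elsewhere. By the same ratio of beta-actin it was the highest of its diet, at 1.29 against 0.77 to 0.97, so the controls differ on this array. Of 10 listed hepatocyte markers, 9 were on the array and tested, and none of them was called in any comparison. Their summed signal was 54546 to 57467 units on the deficient diet, 50024 to 58226 units on the supplemented diet and 53215 to 58846 units on the standard diet. These and the sums that follow take in every listed marker on the array, also those too dim to be tested. The 6 markers of Kupffer cells and leukocytes, 5 of them tested, summed to 925 to 1557, 1166 to 1456 and 963 to 1334 units in the same order of diets. The 11 markers of pancreas, fat and muscle, 6 of them tested, summed to 556 to 999 units on the deficient diet, 864 to 1736 units on the supplemented diet and 857 to 1168 units on the standard diet. Of the 11, 2 were at the floor on all 14 arrays. The 9 markers of endothelial and stellate cells, 7 of them tested, summed to 484 to 585 units on the deficient diet, 481 to 591 units on the supplemented diet and 504 to 630.3 units on the standard diet. The 4 of bile duct, 2 of them tested, summed to 79.0 to 162, 61.8 to 127 and 53.8 to 78.5 units. None of the tested markers was called. Their part in the results below was not tested. In whole tissue, fewer cells of a type and less RNA per cell cannot be told apart.

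No member passed the test in any of the 3 comparisons. With limma and Benjamini-Hochberg adjustment over the 5133 probe sets tested, 0 of the 9 member probe sets tested were called for deficient against standard, 0 of 9 for supplemented against standard and 0 of 9 for deficient against supplemented. Over all probe sets the share called was 0%, 0% and 0.0195%, the last being 1 probe set, of Crispld2. At an unadjusted p under 0.05 the member counts were 0, 1 and 2 of 9, beside 3.04%, 8.88% and 13.0% of all probe sets. Members whose arrays did not overlap between the diets numbered 0, 0 and 1 of 9, beside 1.44%, 1.81% and 4.95% of all probe sets. Over the 5 genes tested by a probe set of their own, the median log2 difference was -0.08 for deficient minus standard, -0.37 for supplemented minus standard and 0.29 for deficient minus supplemented. The medians over all probe sets tested were 0.00059, -0.02 and 0.02. The 5 genes went both ways in each comparison, from -0.33 to 0.23, from -0.63 to 0.36 and from -0.50 to 0.80. Ech1 was the middle gene each time, so each median is the value of Ech1. Any 2 of the comparisons share the arrays of 1 diet, so their values are not independent of each other. The filter kept members by their mean over all 14 arrays, and the Acot1 probe sets were too dim to be tested.

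**Figure D1:**
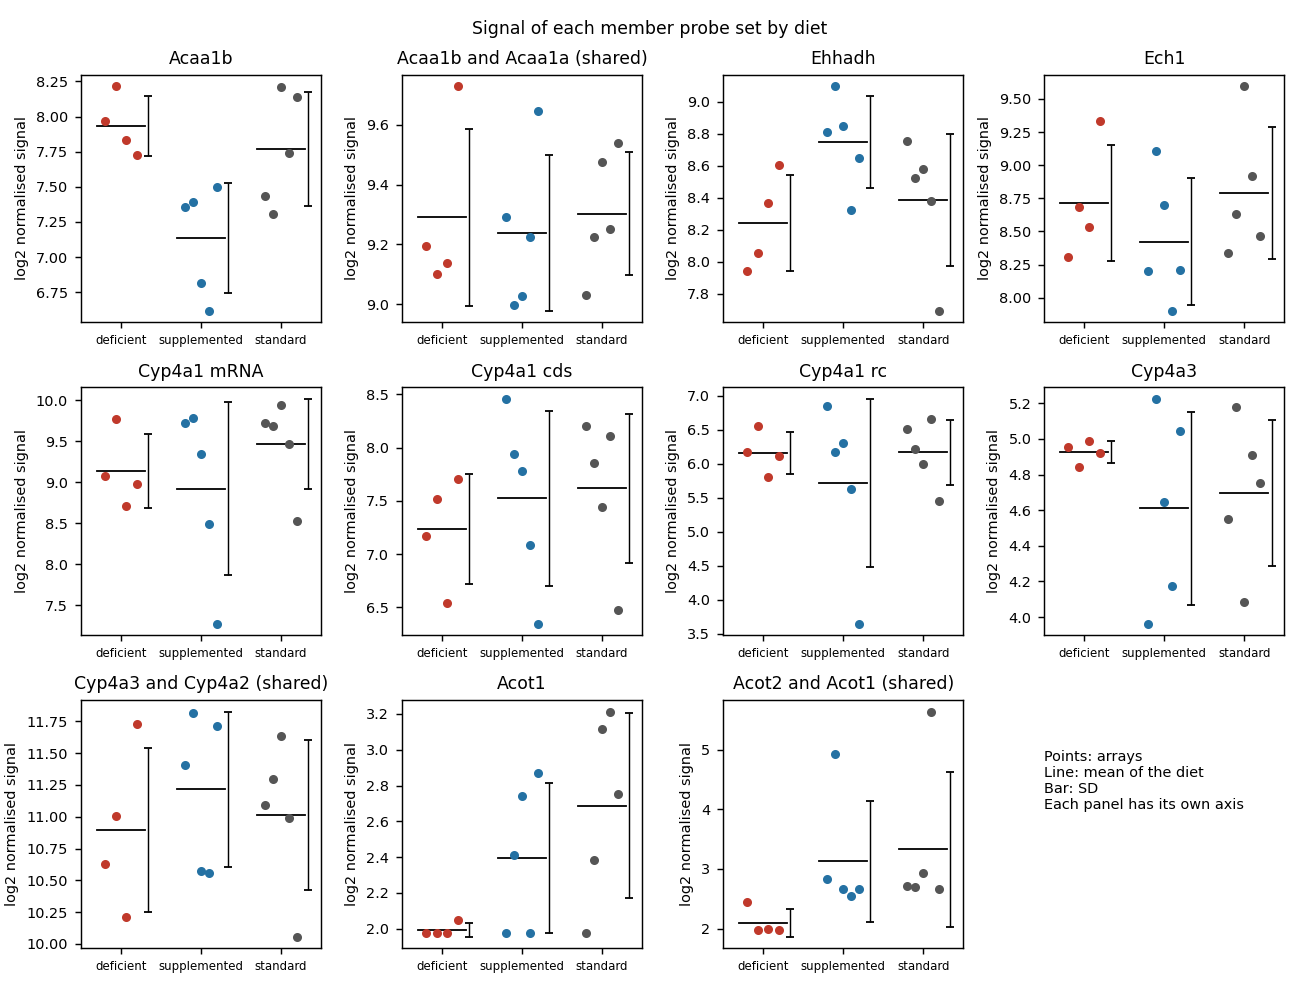
Log2 normalised signal of the 11 member probe sets on each of the 14 arrays, by diet, with each panel on its own axis. Points are arrays, horizontal lines are diet means and bars are SD. In the Acaa1b panel the 4 deficient arrays lie above the 5 supplemented arrays, and in the other panels of tested probe sets the diets overlap.

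Acaa1b encodes peroxisomal thiolase B, which carries out the last step of each beta-oxidation round. Its own probe set (J02749_at) read 250.1, 298, 228 and 211 units on deficient arrays 11 to 14. It read 164, 168, 113, 98.1 and 181 units on supplemented arrays 1 to 5, and 173, 159, 296, 214 and 282 units on standard arrays 6 to 10. Every deficient array was above every supplemented array, while the standard arrays overlapped with both. The means were 247 ± 37.5 units on the deficient diet (SD, n = 4), 145 ± 36.7 units on the supplemented diet (SD, n = 5) and 225 ± 62.4 units on the standard diet (SD, n = 5).

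For Acaa1b, deficient minus supplemented came to 0.80 ± 0.24 (SE) on the log2 scale, or 1.74-fold, with a 95% confidence interval of 0.29 to 1.31. Its unadjusted limma p was 0.00454, which ranked it in place 81 of 5133, and the adjusted p was 0.264. Supplemented minus standard gave -0.63 ± 0.23 (SE), or 1.55-fold lower on the supplemented diet (limma adjusted p = 0.492). Deficient minus standard gave 0.17 ± 0.24 (SE), with an interval of -0.34 to 0.68 (limma adjusted p = 0.999). Over the alternatives the deficient minus supplemented difference stayed between 0.60 and 1.01 and the adjusted p did not go below 0.0910. Acaa1b was also set against the Gapdh ratio over the 14 arrays, and the relation did not pass after adjustment. Pearson's r was 0.53 (permutation p = 0.0478, adjusted p = 0.111 over 7 members) and rho was 0.64 (permutation p = 0.0159, adjusted p = 0.0557). Pearson's r was 0.45 without deficient 13 and standard 10, which had the highest ratios. The relation passed by r with arrays centred on their median (r = 0.69, adjusted p = 0.0417) and by rho in 3 of 14 runs with 1 array left out. It also passed by rho when Acot1, a member near the floor, was left out of the adjustment. Within diets, with every array set against the mean of its own diet, r was 0.05 (permutation p = 0.867). With the Gapdh ratio in the model, deficient minus supplemented came to 0.77. That ratio nearly separates these 2 diets, at 1.12 to 2.68 on deficient and -0.12 to 1.12 on supplemented arrays. With it in the model, 113 of 5133 probe sets had an unadjusted limma p under 0.05 for this comparison, against 669 without it. The part of RNA quality in the Acaa1b difference was not tested.

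The probe set shared by Acaa1b and Acaa1a (J02749_g_at) did not show that pattern. Acaa1a encodes thiolase A, a close relative, and 6 protein-coding genes lie between the 2 genes on chromosome 8. The shared probe set read 586, 549, 564 and 849.8 units on deficient arrays 11 to 14, against 626, 511, 521, 599 and 801 units on supplemented arrays 1 to 5. On standard arrays 6 to 10 it read 522, 598, 712, 609 and 744 units. The diets overlapped throughout, and deficient 14 stood highest of all. The log2 difference was 0.05 ± 0.18 (SE) for deficient minus supplemented, with an interval of -0.33 to 0.44, -0.07 ± 0.17 for supplemented minus standard and -0.01 ± 0.18 for deficient minus standard (limma adjusted p = 0.914, 0.929 and 0.999). Both intervals, of the own and the shared probe set, cover the values between 0.29 and 0.44, and the difference between the probe sets was not tested.

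Ehhadh encodes the bifunctional enzyme that carries out the hydration and dehydrogenation steps before the thiolase. Its probe set (K03249_at) read 245.8, 266, 330.3 and 389 units on deficient arrays 11 to 14. It read 449, 548, 461, 320.0 and 400.4 units on supplemented arrays 1 to 5 and 432, 368, 383, 332 and 207 units on standard arrays 6 to 10. The supplemented arrays lay mostly above the deficient arrays, but supplemented 4 was below deficient 13 and 14. Standard 10 was the lowest of all.

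For Ehhadh, deficient minus supplemented came to -0.50 ± 0.23 (SE) on the log2 scale, with an interval of -0.99 to -0.02 (limma adjusted p = 0.373). Its sign was opposite to that of Acaa1b, the next enzyme of the spiral. Supplemented minus standard was 0.36 ± 0.21 (SE; limma adjusted p = 0.642) and deficient minus standard -0.15 ± 0.23 (SE; limma adjusted p = 0.999). Ehhadh was lower on arrays with a higher Gapdh ratio, with r = -0.64 (permutation p = 0.0139, adjusted p = 0.0488 over 7 members) and rho = -0.76 (permutation p = 0.00239, adjusted p = 0.0167). Without the farthest arrays, deficient 13 and standard 10, r was -0.52. Within diets r was -0.42 (permutation p = 0.137). With 1 array left out the relation passed by r in 3 of 14 runs, with r between -0.70 and -0.49, and by rho in 11 of 14, with rho between -0.82 and -0.72. With arrays centred on their median r was -0.23 and did not pass. With the Gapdh ratio, which nearly separates these diets, in the model, deficient minus supplemented came to -0.23.

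Ech1 encodes a dienoyl-CoA isomerase found in peroxisomes and mitochondria, which shifts double bonds so that unsaturated fatty acids can be oxidised. Its probe set (U08976_at) read 317, 412, 369.7 and 644 units on deficient arrays 11 to 14. It read 295, 552, 415, 239 and 296 units on supplemented arrays 1 to 5 and 323, 397, 775, 483 and 354 units on standard arrays 6 to 10. The diets overlapped, with standard 8 and deficient 14 the highest arrays. The log2 difference was 0.29 ± 0.30 (SE) for deficient minus supplemented, -0.37 ± 0.28 for supplemented minus standard and -0.08 ± 0.30 for deficient minus standard (limma adjusted p = 0.696, 0.713 and 0.999). The interval of the last ran from -0.71 to 0.56. Without deficient 14 the first was 0.0846 and the last -0.28, and without standard 8 the second was -0.16 and the last 0.13.

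**Figure D2:**
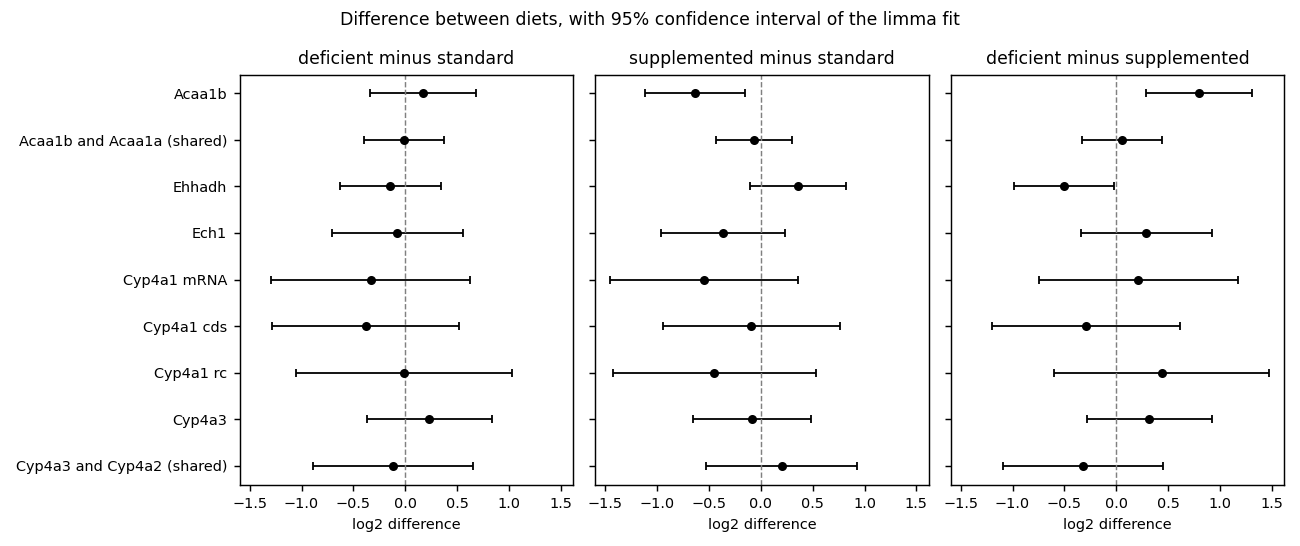
Log2 difference between diets for the 9 member probe sets tested, with 95% confidence intervals from the limma fit, for deficient minus standard, supplemented minus standard and deficient minus supplemented. The interval of the Acaa1b probe set excludes 0 in the last 2 panels and that of Ehhadh in the last, and none of these passed after adjustment.

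The Cyp4a genes encode cytochrome P450 enzymes that hydroxylate the far end of fatty acids such as lauric acid. Cyp4a1 and Cyp4a3 are neighbours on chromosome 5, with no protein-coding gene between them. Cyp4a1 had 3 probe sets, called the mRNA, cds and rc probe sets after their platform identifiers (M57718mRNA_s_at, X07259cds_s_at and rc_AA924267_s_at). The mRNA probe set read 539, 875, 421 and 506 units on deficient arrays 11 to 14. On supplemented arrays 1 to 5 it read 848, 881, 653, 359.5 and 155 units, and on standard arrays 6 to 10 it read 846, 825, 983, 706 and 370.1 units. The supplemented diet held both high and low arrays, and supplemented 5 was the lowest of the 14.

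The cds probe set read 144, 183, 92.8 and 209 units on deficient arrays, 352, 246, 220.3, 136 and 81.2 units on supplemented arrays and 294, 232, 174, 276 and 88.8 units on standard arrays. The rc probe set read 71.9, 93.6, 55.7 and 69.1 units on deficient arrays, 115, 72.1, 78.8, 49.6 and 12.5 units on supplemented arrays and 90.8, 74.7, 63.9, 101 and 43.8 units on standard arrays. Supplemented 5 was the lowest array by all 3 probe sets, and the mRNA probe set spanned 6.35-fold over the 14 arrays. The probe sets followed each other from array to array. Over 14 arrays Pearson's r was 0.80 for mRNA with cds, 0.89 for mRNA with rc and 0.80 for cds with rc (permutation p = 0.000250, 0.000210 and 1e-05, the last being the smallest the resamples can give, and adjusted p = 0.000250, 0.000250 and 3e-05 over 3 pairs). Spearman's rho was 0.67, 0.66 and 0.89 (permutation p = 0.0102, 0.0120 and 6e-05, adjusted p = 0.0120, 0.0120 and 0.000180). Without the farthest arrays, supplemented 5 with supplemented 4 or standard 10, r was 0.76, 0.68 and 0.81.

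**Figure D3:**
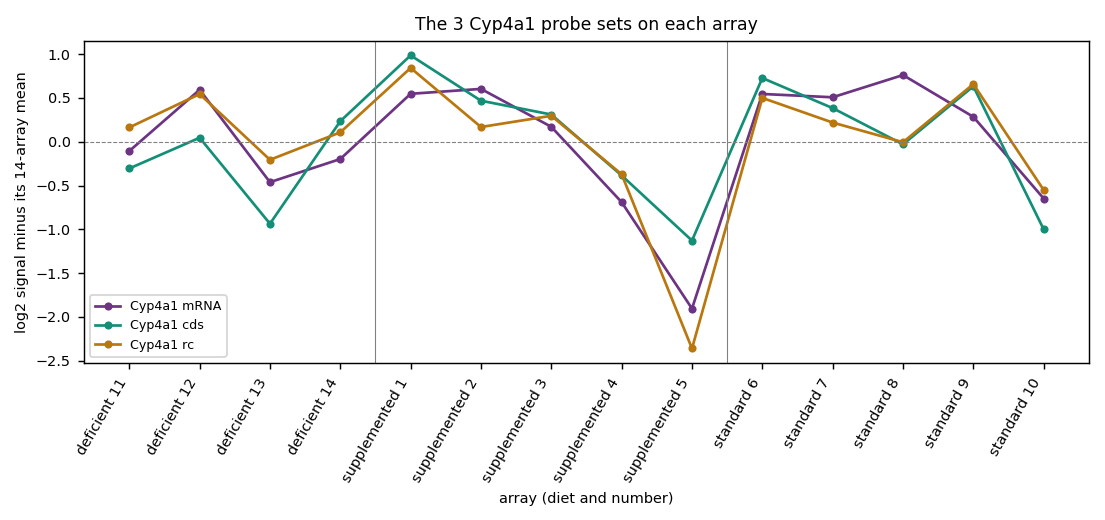
Log2 signal of the 3 Cyp4a1 probe sets, as the deviation from each probe set's 14-array mean, on every array from the deficient diet at the left to the standard diet at the right. The lines run together, and all 3 reach their lowest point on supplemented 5.

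The differences of Cyp4a1 between diets were smaller than this spread. The SD within diets of the mRNA probe set was 0.76 on the log2 scale, larger than that of 88.2% of the probe sets tested, whose median was 0.39. Its log2 difference was -0.33 ± 0.45 (SE) for deficient minus standard, -0.54 ± 0.42 for supplemented minus standard and 0.21 ± 0.45 for deficient minus supplemented (limma adjusted p = 0.999, 0.713 and 0.862). Supplemented 5 carried much of the second value, which was -0.13 without it, and the third turned to -0.20. The cds probe set gave -0.38 ± 0.42, -0.09 ± 0.40 and -0.29 ± 0.42, and the rc probe set gave -0.01 ± 0.49, -0.45 ± 0.46 and 0.44 ± 0.49, in the same order of comparisons.

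Cyp4a3 by its own probe set (rc_AA924591_at) was dim. It read 31.0, 28.7, 31.8 and 30.3 units on deficient arrays 11 to 14, 15.6, 37.4, 25.0, 18.1 and 33.0 units on supplemented arrays 1 to 5 and 23.5, 36.2, 17.0, 30.1 and 27.0 units on standard arrays 6 to 10. The deficient arrays lay within the range of both other diets. The log2 difference was 0.23 ± 0.28 (SE) for deficient minus standard, -0.09 ± 0.27 for supplemented minus standard and 0.32 ± 0.28 for deficient minus supplemented (limma adjusted p = 0.999, 0.942 and 0.644).

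The probe set shared by Cyp4a3 and Cyp4a2 (M33936_s_at) was bright. It read 1586, 2056, 1187 and 3401 units on deficient arrays 11 to 14. It read 2721, 3613, 1526, 1504 and 3365 units on supplemented arrays 1 to 5 and 2180.5, 2512, 3184, 2029 and 1064 units on standard arrays 6 to 10. Each diet spanned most of the range, with deficient 14, supplemented 2 and standard 8 the brightest and deficient 13, supplemented 4 and standard 10 the dimmest arrays of their diets. The log2 difference was -0.12 ± 0.36 (SE) for deficient minus standard, 0.20 ± 0.34 for supplemented minus standard and -0.32 ± 0.36 for deficient minus supplemented (limma adjusted p = 0.999, 0.881 and 0.721). Its own and shared probe sets had r = 0.04 over the 14 arrays (permutation p = 0.883, adjusted p = 0.927 over 21 pairs) and rho = 0.24 (permutation p = 0.408, adjusted p = 0.795), and r was 0.48 without supplemented 1 and standard 8.

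The shared Cyp4a3 and Cyp4a2 probe set was dimmer on arrays with a higher Gapdh ratio. Pearson's r was -0.66 (permutation p = 0.00878, adjusted p = 0.0488 over 7 members) and rho was -0.53 (permutation p = 0.0544, adjusted p = 0.127). Within diets r was -0.72 (permutation p = 0.00350), and over all diets it was -0.33 without deficient 13 and standard 10, so the relation rests in part on those arrays. With the Gapdh ratio in the model the differences of this probe set turned to 0.04, -0.50 and 0.54 for deficient minus standard, supplemented minus standard and deficient minus supplemented, none past the test. Of the 7 relations of members with the Gapdh ratio, 2 passed by r and 1 by rho. With 1 array left out, both relations passed by r without supplemented 2, supplemented 4 or standard 6, that of the shared probe set alone without supplemented 3 or standard 8, and neither in the other 9 runs. Neither passed by r with values as deposited (adjusted permutation p = 0.0547 for both) or after median centring. Ehhadh did pass by rho with values as deposited (rho = -0.74, adjusted permutation p = 0.0216). After median centring its rho was -0.46 and did not pass. The shared probe set did not pass by rho in either setting.

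**Figure D4:**
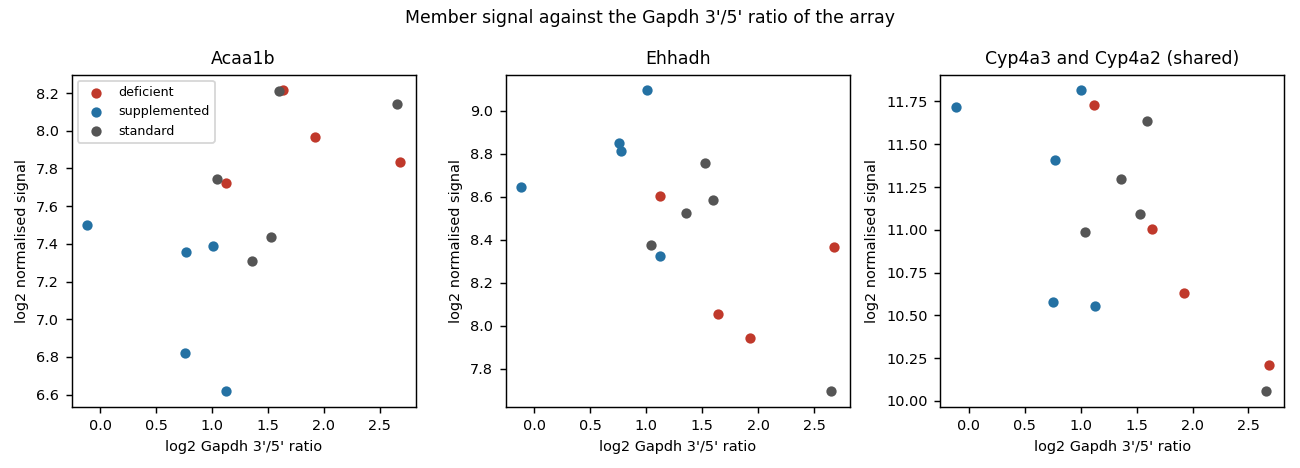
Log2 normalised signal of Acaa1b, Ehhadh and the probe set shared by Cyp4a3 and Cyp4a2 against the log2 Gapdh 3'/5' ratio, 1 point per array, coloured by diet. Ehhadh and the shared probe set are lower where the ratio is higher (r = -0.64 and -0.66), and for Acaa1b the supplemented arrays sit at low ratios and low signals.

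Acot1 encodes a cytosolic acyl-CoA thioesterase that is barely present in the liver of untreated rats and is induced by fibrates. Its probe set (AB010428_s_at) was at or below 9.28 units on every array, under the filter level of 14.3 units, and was at the floor of 3.93 units on 3 of 4 deficient, 2 of 5 supplemented and 1 of 5 standard arrays. The probe set shared with Acot2 (Y09333_g_at), the mitochondrial thioesterase gene that lies beside Acot1 on chromosome 6, read 5.44, 3.93, 3.97 and 3.93 units on deficient arrays. It read 7.11, 30.4, 6.34, 5.82 and 6.33 units on supplemented arrays and 6.58, 6.46, 7.66, 49.8 and 6.33 units on standard arrays. Supplemented 2 and standard 9 stood far above the rest, and 12 of 14 arrays were under the filter level. Neither probe set was tested with the filter. Without it, neither was called (limma adjusted p between 0.600 and 1), and values at the floor have no order.

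No pair of members passed a test of moving together from array to array. Of 21 pairs, Acot1 and the shared Cyp4a3 and Cyp4a2 probe set included, 16 had a positive and 5 a negative Pearson's r, with a median of 0.15. Acot1 enters 6 of these pairs with values at the floor on 6 of 14 arrays, and without it 11 pairs were positive and 4 negative, with a median of 0.17. None passed by r or rho after adjustment over the 21 pairs, nor over the 15 without Acot1. At an unadjusted permutation p under 0.05 there was 1 pair by r and 2 by rho. Ehhadh with the shared Cyp4a3 and Cyp4a2 probe set was among them by both, with r = 0.66 (permutation p = 0.0105, adjusted p = 0.220), rho = 0.64 (permutation p = 0.0153, adjusted p = 0.322) and r = 0.66 within diets. Without standard 10 and deficient 11 its r was 0.46. Both followed the Gapdh ratio, and its part in this pair was not tested. The other by rho was Acaa1b with Ehhadh, which also had the lowest r, -0.52 (permutation p = 0.0545, adjusted p = 0.428), with rho = -0.56 (permutation p = 0.0421, adjusted p = 0.371), and it was -0.19 within diets and -0.74 without supplemented 3 and 4.

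For each array, the deviations of the 5 tested genes from their 14-array means were averaged. This average ran from -0.07 to 0.19 on the deficient diet, from -0.62 to 0.40 on the supplemented diet and from -0.20 to 0.36 on the standard diet. Supplemented 4, at -0.62, and supplemented 5, at -0.39, were the lowest arrays, while supplemented 2 was the highest. The deviations were not scaled, so a gene with a wide spread weighs more. On supplemented 5 the low average came mainly from Cyp4a1, at 7.27 in log2 against a 14-array mean of 9.18. Ech1 (8.21 against 8.64) and Acaa1b (7.50 against 7.59) were also below their means there. Ehhadh (8.65 against 8.47) and Cyp4a3 (5.05 against 4.73) were above theirs. Among 3068 other genes, those most like this average by Pearson's r over the 14 arrays were Decr1 (0.85), Gpx4 (0.80), Cst3 (0.79), Hadha (0.78) and Eci1 (0.77). Decr1, Hadha and Eci1 encode mitochondrial enzymes of fatty acid oxidation: a dienoyl-CoA reductase, a subunit of the trifunctional protein and an enoyl-CoA isomerase. Gpx4 encodes a peroxidase of lipid hydroperoxides and Cst3 the protease inhibitor cystatin C. These genes were picked for their likeness, so the coefficients are a description. Without supplemented 2 and supplemented 4, the arrays farthest from the median of the average, they were 0.81, 0.72, 0.62, 0.60 and 0.79 in the same order. None of the 5 genes was called between diets, and the log2 difference of Decr1 was -0.25 ± 0.42 (SE) for deficient minus standard, -0.53 ± 0.40 for supplemented minus standard and 0.28 ± 0.42 for deficient minus supplemented.

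**Figure D5:**
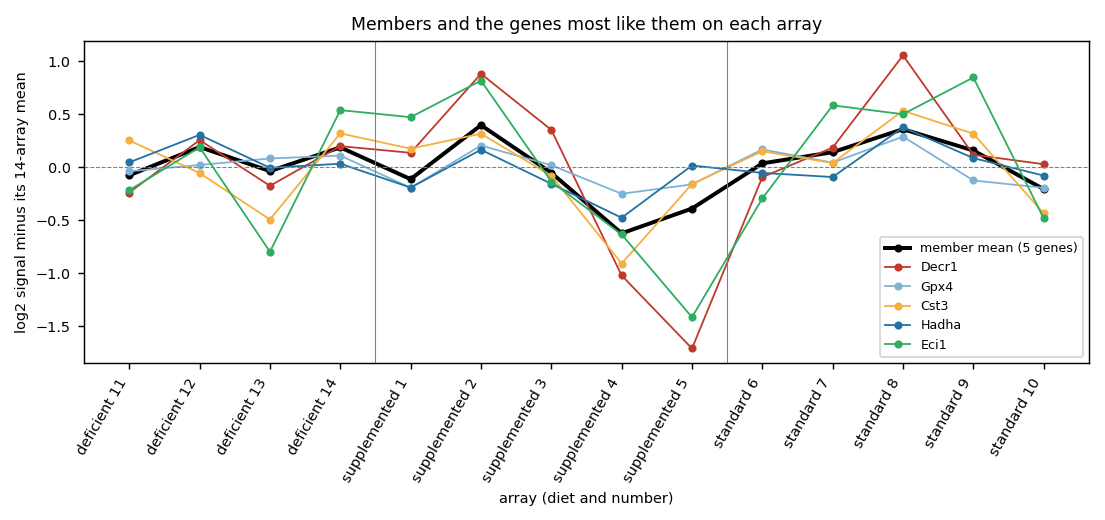
Mean log2 deviation of the 5 tested member genes (black) and the log2 deviation of the 5 genes most like it, on every array from the deficient diet at the left to the standard diet at the right. The black line is lowest on supplemented 4 (-0.62) and highest on supplemented 2 (0.40), and Decr1 and Eci1 fall further than it on supplemented 5.

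Other genes of the pathway gave no calls. Of 35 listed peroxisomal enzymes outside the 7 genes, 15 were tested and 0 were called by limma in each comparison, with 0, 2 and 1 at an unadjusted p under 0.05 for deficient against standard, supplemented against standard and deficient against supplemented. Their median log2 differences were -0.06, 0.01 and -0.10, and each of these changed sign in some run with 1 array left out. The 2 were Dao and Acox2, both lower on the supplemented diet, and the 1 was Dao, higher on the deficient diet. Both genes are named here after their values were seen. Supplemented minus standard was -0.90 ± 0.25 for Dao and -0.65 ± 0.29 for Acox2 (SE; limma adjusted p = 0.474 and 0.534). Uox, the urate oxidase of the peroxisome core, averaged 3024 ± 402 units on the deficient diet, 3511 ± 332 units on the supplemented diet and 3149 ± 324 units on the standard diet (SD, n = 4, 5 and 5). Cat, the catalase that removes the hydrogen peroxide of peroxisomal oxidation, averaged 1041 ± 274, 1005 ± 539 and 1131 ± 257 units. Idh1 and Hsd17b4, the second bifunctional enzyme, had log2 differences for deficient minus supplemented of -0.21 ± 0.16 and -0.23 ± 0.31 (SE).

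Of 21 listed genes of the peroxisome membrane and of peroxisome assembly, 11 were tested and 0 were called by limma in each comparison. At an unadjusted p under 0.05 there were 0 for deficient against standard, 3 for supplemented against standard, all lower, and 3 for deficient against supplemented, all higher. Over all probe sets, 4.73% were lower at that p for supplemented against standard and 6.86% higher for deficient against supplemented. The same 3 genes, Abcd3, Fis1 and Pex19, made up both counts, which share the supplemented arrays and are not independent. The Gapdh ratio nearly separates the deficient and supplemented diets, and its part in these differences was not tested. The medians of the list were 0.07, -0.17 and 0.31. Abcd3, a transporter of fatty acyl groups in the peroxisome membrane, averaged 473 ± 220 units on the deficient diet, 239.9 ± 79.9 units on the supplemented diet and 439 ± 122 units on the standard diet (SD, n = 4, 5 and 5). Its log2 difference was 0.92 ± 0.34 (SE) for deficient minus supplemented (limma adjusted p = 0.312). Fis1, a fission factor of peroxisomes and mitochondria, averaged 768 ± 179, 440.4 ± 44.2 and 705 ± 286 units in the same order of diets, a difference of 0.78 ± 0.24 for deficient minus supplemented (limma adjusted p = 0.264). Slc27a2, an acyl-CoA synthetase and fatty acid transporter, and Pxmp2, a channel protein of the membrane, differed by -0.10 ± 0.14 and 0.05 ± 0.14 in that comparison.

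Of 32 listed mitochondrial and other targets of PPAR-alpha, 23 were tested and 0 were called by limma in each comparison, with 1, 1 and 3 at an unadjusted p under 0.05. The medians were -0.04, -0.14 and 0.03. With 1 array left out the second ran to 0.0370, without supplemented 5, and the third from -0.0742, again without supplemented 5, to 0.16, without supplemented 2. Acaa2, the mitochondrial thiolase, averaged 2607 ± 347 units on the deficient diet, 1851 ± 150 units on the supplemented diet and 2259.8 ± 426 units on the standard diet (SD, n = 4, 5 and 5). Its log2 difference was 0.49 ± 0.14 (SE) for deficient minus supplemented (limma adjusted p = 0.254), the same sign as Acaa1b. Plin2, which coats lipid droplets, differed by 0.38 ± 0.18, Acsl1, which activates fatty acids, by 0.15 ± 0.16, and Fabp1, the liver fatty acid carrier, by -0.25 ± 0.15.

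Of 18 listed genes for the receptor and its partners, 10 were tested and 0 were called by limma in each comparison, with 0, 2 and 0 at an unadjusted p under 0.05. The 2 were Ppara and Ncoa1, both lower on the supplemented diet. Ncoa1, also named after its values were seen, averaged 12.8 ± 10.5 units on the supplemented and 25.5 ± 3.23 units on the standard diet (SD). Its limma adjusted p was 0.510. Ppara itself, named here after its values were seen, read 32.5, 21.1, 18.0 and 28.6 units on deficient arrays, 9.49, 22.2, 13.3, 19.8 and 23.8 units on supplemented arrays and 21.7, 28.4, 23.8, 37.1 and 26.7 units on standard arrays. Ppara was dim, and supplemented 1 and 3, the lowest arrays, were under the filter level of 14.3 units. The other supplemented arrays lay within the range of the deficient arrays. The log2 difference was -0.69 ± 0.28 (SE) for supplemented minus standard (limma adjusted p = 0.510) and 0.54 ± 0.30 for deficient minus supplemented (limma adjusted p = 0.444). Rxrg, a retinoid X receptor, Hnf4a, a hepatocyte nuclear receptor, and Nr1h3, the liver X receptor alpha, differed by -0.27 ± 0.24, -0.29 ± 0.20 and 0.25 ± 0.19 for deficient minus supplemented.

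Of 16 listed genes for other Cyp4 enzymes and omega-oxidation, 10 were tested and 0 were called by limma, with 0 at an unadjusted p under 0.05 in every comparison. Of the 10, 9 were lower for deficient against standard, with a median of -0.17, and 7 were lower for supplemented against standard, with a median of -0.25. For deficient against supplemented 7 were higher, with a median of 0.12. The medians over all probe sets tested were 0.00059, -0.02 and 0.02, and their share of lower signs was not counted. The genes were measured on the same arrays, so these counts of signs are a description. Cyp4f1 averaged 1440.0 ± 228 units on the deficient diet, 1606 ± 395 units on the supplemented diet and 1602 ± 258 units on the standard diet (SD, n = 4, 5 and 5), and Cyp4f6 averaged 705 ± 87.5, 635 ± 106 and 859 ± 256 units. Fasting raises PPAR-alpha targets in liver, and the state of feeding is not given in the labels. Of 12 listed fasting genes 7 were tested, and of 12 listed feeding genes 8 were tested, with 0 called by limma in each comparison. At an unadjusted p under 0.05 there were 0, 0 and 0 fasting genes and 0, 1 and 1 feeding genes for deficient against standard, supplemented against standard and deficient against supplemented. The 1 in both was Acaca, an acetyl-CoA carboxylase, named here after its values were seen. It averaged 20.03 ± 4.26, 33.8 ± 12.1 and 20.3 ± 6.87 units on the deficient, supplemented and standard diets, and differed by -0.70 ± 0.32 (SE) for deficient minus supplemented (limma adjusted p = 0.373). The median log2 differences were 0.15, 0.13 and -0.01 for the fasting genes and 0.01, 0.04 and -0.0016 for the feeding genes. Pck1, a gluconeogenic enzyme that rises in fasting, averaged 1497 ± 705, 1487 ± 543 and 1449.6 ± 888 units on the deficient, supplemented and standard diets. Tat, a tyrosine aminotransferase, averaged 1288 ± 164, 1881 ± 822 and 1459.8 ± 207 units, Igfbp1, an IGF binding protein, 497 ± 162, 696 ± 297 and 615 ± 239 units, and Cpt1a, which passes fatty acids into mitochondria, 662 ± 297, 596 ± 341 and 670.1 ± 480.2 units. Their log2 differences for deficient minus supplemented were -0.46 ± 0.23, -0.40 ± 0.42 and 0.22 ± 0.46 (SE), and none passed. Fasn, the fatty acid synthase that rises with feeding, averaged 1646 ± 589, 1749.5 ± 834 and 1918 ± 1006 units.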

How the data were processed

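Liver RNA was measured on 14 one-colour Affymetrix arrays. The authors deposited intensity values on a linear scale, 1 per probe set, whose mean with 2% trimmed at each end was about 150.3 units on every array. Which software made them is not given in the sources used here, and without detection calls no signal can be placed above or below background. Each labelled target started from 5 µg of total RNA, per the labels. Samples were grouped by their titles. The deposited table's probe sets were named through the platform annotation: 7006 had 1 symbol, 308 several and 1426 none, and the gene IDs of 6985 matched the RefSeq gene table.

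The 59 control probe sets were left out. Signals were quantile normalised on the log2 scale, set to a floor at the pooled 20th percentile (3.93 units) and put on log2, where fold changes understate the change of dim probe sets. The filter kept probe sets whose 14-array mean passed the 40th percentile of all values, 3.83 in log2 or 14.3 units: 5133 probe sets of 3073 genes. Diets were compared in R 4.3.3 by limma 3.58.1 (1 model of 3 diets, eBayes with a trend, two-sided, Benjamini-Hochberg adjusted p under 0.05 over all probe sets kept), which was tested on simulated data. The number of arrays limits the precision. Correlations used 100000 permutations, two-sided (scipy 1.17.1). For correlations within diets, the deviations from the diet means were shuffled over all 14 arrays and not inside each diet. This takes no account of the means removed, so those p-values can be too small. The brightest probe set stood for a gene. Each list named its 4 brightest genes, of which the text gives those that bear on the members, and the 5 genes most like the members were those with the highest r. The members and lists were chosen with earlier results of these data known. Alternatives covered scaling, floor, filter, variance model, RNA quality and arrays left out. No sample column was left unused, and no pair of arrays held identical values.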

Additional observations from a re-analysis of the deposited data

Results flagged for a closer look

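In 29 sets of arrays of 1 member probe set on 1 diet, without values at the floor, an array was looked for that stood apart from the others by more than Dixon's 95% limit. This was met 3 times, and chance alone meets it in about 1 of 20 sets. The probe set shared by Acaa1b and Acaa1a read 849.8 units on deficient 14, against 549 to 586 units on the other deficient arrays. The gap was 0.85 of the range of the diet. Without deficient 14 the log2 difference of this probe set was -0.09 for deficient minus supplemented and -0.16 for deficient minus standard.

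The probe set shared by Acot2 and Acot1 gave the other 2 cases. It read 30.4 units on supplemented 2, with a gap of 0.88 of the range of the diet, and 49.8 units on standard 9, with a gap of 0.91. The other supplemented arrays read 5.82 to 7.11 units and the other standard arrays 6.33 to 7.66 units, all under the filter level of 14.3 units. Acot1 by its own probe set read 5.33 units on supplemented 2 and 9.28 units on standard 9.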

How the results depend on the processing

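Neither the 9 member probe sets nor the genes of the 7 pathway lists gave a call under any of 26 alternatives. Of 699 single values of members under these, 646 kept their sign, 53 turned, and none passed the test, with a lowest adjusted p of 0.0910. Acaa1b and Ehhadh kept their signs in all 3 comparisons. Of the 53 turned values, 25 came outside the runs that left out 1 array. For deficient minus standard the shared Acaa1b and Acaa1a probe set turned to 0.00526 with values as deposited, 0.0760 with arrays centred on their median, 0.0166 with the Gapdh ratio as a covariate and 0.0974 without supplemented 5, standard 10 and deficient 13. Ech1 turned to 0.0211 with median centring and 0.00109 with the beta-actin ratio, a covariate added after seeing the data. Cyp4a1 by the rc probe set turned to 0.0366 with median centring, 0.0455 with array weights and 0.198 with the beta-actin ratio. The shared Cyp4a3 and Cyp4a2 probe set turned to 0.0398 with the Gapdh and 0.0670 with the beta-actin ratio. For supplemented minus standard, the Cyp4a1 cds probe set turned to 0.0329 as deposited and 0.132 with array weights, and Cyp4a3 to 0.0468 as deposited. The shared Cyp4a3 and Cyp4a2 probe set turned to -0.0120 with median centring, -0.504 with the Gapdh ratio, -0.109 with the beta-actin ratio and -0.162 without the 3 arrays. For deficient minus supplemented, the Cyp4a1 mRNA probe set turned to -0.0346 with array weights and -0.0613 without the 3 arrays, and the cds probe set to 0.195 with the Gapdh and 0.505 with the beta-actin ratio. The shared Cyp4a3 and Cyp4a2 probe set turned to 0.544 with the Gapdh ratio, 0.176 with the beta-actin ratio and 0.0331 without the 3 arrays. Median centring moved the median over all probe sets to 0.17 for deficient minus supplemented and to -0.11 for supplemented minus standard. Of 21 medians of the pathway lists, 13 changed sign in some run with 1 array left out. The causes were not tested.

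With each array left out in turn, the other 28 of the turned values fell in these ranges. The shared Acaa1b and Acaa1a probe set ran from -0.16 to 0.0514 for deficient minus standard and from -0.0929 to 0.16 for deficient minus supplemented. Ech1 ran from -0.28 to 0.13 for deficient minus standard, and Cyp4a3 from -0.24 to 0.0766 for supplemented minus standard. Cyp4a1 ran from -0.38 to 0.20 by the cds probe set for supplemented minus standard and from -0.20 to 0.43 by the mRNA probe set for deficient minus supplemented. By the rc probe set it ran from -0.19 to 0.11 for deficient minus standard, from -0.73 to 0.0697 for supplemented minus standard and from -0.0815 to 0.72 for deficient minus supplemented. The shared Cyp4a3 and Cyp4a2 probe set ran from -0.40 to 0.11 for deficient minus standard and from -0.0369 to 0.37 for supplemented minus standard. The member median ran from -0.27 (without deficient 14) to 0.0778 (without standard 8) for deficient minus standard, from -0.54 to -0.19 for supplemented minus standard and from 0.16 to 0.46 for deficient minus supplemented.

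Over all probe sets, 1 was called for deficient against supplemented and 1 by the F-test of any diet difference. Both counts were 0 with values as deposited, the pseudocount of 16, the filter at the 60th percentile, either covariate, and without the 3 arrays. With only the 2 diets compared the count for deficient against supplemented was 0. Without a filter, 1, 2 and 2 probe sets were called for deficient against standard, deficient against supplemented and any difference. For supplemented against standard 1 was called without trend and 1 with array weights. With 1 array left out the counts ran from 0 to 4 for deficient against supplemented, from 0 to 2 for supplemented against standard and from 0 to 3 for any difference. Of the member relations with the Gapdh ratio, 2 passed by r. By r, 0 passed with values as deposited and without the 3 arrays, 1 with median centring, 2 without Acot1, and 0 to 2 with 1 array left out. By rho, 2 passed without Acot1, against 1 with it. Of the member pairs, 0 passed, also without Acot1, and 0 to 1 with 1 array left out. These repeats of the correlations were chosen after seeing the data. No paired analysis was possible because the array numbers run on from diet to diet and none is shared. The 4 to 5 arrays per diet limit what can be seen: the 95% interval of the Cyp4a1 mRNA probe set for deficient minus standard ran from -1.29 to 0.63.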
